A study of Homo sapiens with 10 samples.

Results

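The vacuolar proton pump (V-ATPase) and the proteins of the lysosome it acidifies were examined in ARPE-19 cells kept in high glucose. Members were the rows of the deposited read-count table whose gene symbol names a V1 or V0 subunit of the pump, an accessory protein (ATP6AP1 or ATP6AP2), a cathepsin with a single letter, LAMP1 to LAMP3, or belongs to a set of lysosomal genes that includes HEXA, GLA, GLB1, GAA, GUSB, LIPA, NPC1, NPC2, PSAP, MCOLN1, SCARB2 and TPP1. This rule found 56 of 22626 rows. ARPE-19 is an established human retinal pigment epithelium (RPE) line that arose without engineering. Its total RNA was sequenced after 48 h in a control medium that held D-glucose at 5.5 mM plus mannitol at 32 mM (control group, n = 5, labelled normal glucose for the treatment) or in a medium with 37.5 mM D-glucose (HG group, n = 5). Mannitol is a sugar alcohol that cells hardly use, added to balance the osmotic load of the glucose, and both media were serum-containing DMEM. The control libraries are numbered 1 to 5 as in the labels, and the HG libraries carry their names in the deposited table, HG_1 to HG_5. Nothing in the labels says whether replicates came from separate cultures, so p-values measure the spread between these libraries, which may be technical.

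The V-ATPase is a rotary enzyme. Its cytosolic V1 sector hydrolyses ATP on a hexamer of A and B subunits, and the turning central stalk (D, F) drives the membrane-embedded V0 sector (a, c, c'', d, e), which moves protons into the lysosome. Peripheral stalks (C, E, G, H) hold V1 to V0, and cells can switch the pump off by releasing V1 with the C subunit set free. Cathepsins, glycosidases and lipases need the acid made by the pump. In the RPE of the eye, lysosomes digest the outer segments that photoreceptors shed each day. Several subunits exist as paralogs, of which 1 is found in most cells and the others in few tissues.

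The 10 libraries held 32448991 to 45864176 counts in all. A count of 3, taken as the detection limit, corresponded to 0.0654 to 0.0925 CPM, which are counts scaled to the size of the library. CPM values below were scaled by TMM, which corrects for differences in RNA composition between libraries. Control library 2 and HG_1 stood apart from the others on the second principal component (43.9 and 44.9, others -28.6 to 13.8), and their counts rose with the GC content of the transcript (slopes of 0.17 and 0.188 log2 units per 10 percentage points, others -0.0916 to -0.00519). Within groups, all 20 pairs of libraries differed by more than sampling noise. The visual-cycle gene RPE65 was at 0.0269 ± 0.0602 CPM (SD, n = 5) in control and listed at 0 in HG, and TTR was listed at 0 throughout, whereas the epithelial keratins KRT8 and KRT18 were abundant. Of 12 RPE markers, 9 passed the filter on low counts and 4 of them were lower in HG (TIMP3, KRT8, KRT18 and PMEL). The summed level of the 12 was 3400 to 4330 CPM in control and 2030 to 2730 CPM in HG. BEST1, which is part of this sum, was not called (log2 fold change -4.97 ± 1.64 SE, adjusted p = 0.067). Its level ran from 0.577 to 551 CPM in control and from 0.981 to 7.79 CPM in HG. The 6 macrophage markers summed to 60.6 to 88.6 CPM in control and 106 to 149 CPM in HG, mostly CD68, itself a lysosomal membrane protein (70.3 ± 10.5 and 114 ± 17 CPM, SD, n = 5). CSF1R, the other macrophage marker that passed the filter, had 6.57 ± 0.864 and 4.86 ± 0.681 CPM and was not called (log2 fold change -0.43, adjusted p = 0.0502), the leukocyte marker PTPRC stayed at or below 0.0898 CPM and AIF1 had at most 3 counts in every library. The 4 endothelial markers summed to 2.93 to 5.05 CPM in control and 2.13 to 3.01 CPM in HG, with CDH5 at 3 counts or fewer, and the 5 photoreceptor markers to 0.584 to 1.15 and 0.152 to 0.873 CPM, with CRX and GNAT1 at 3 counts or fewer. The part of the RPE marker shift in the results below was not tested, and in bulk RNA fewer cells with a transcript and less of it per cell cannot be told apart.

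More pump and lysosomal genes were higher than lower in HG, most of them by small amounts. ATP6V1C2, one of the pump's C subunits, was selected on its rise in these same libraries and is described without a test, which leaves 50 members that passed the filter on low counts. Of these, 18 were higher in HG at an adjusted p under 0.05 (36%), beside 7.62% of all 14936 rows tested. LAMP3 alone was lower (1 of 50, 2%), beside 7.8% of all rows, and 31 were not called. The median log2 fold change of the 50 was 0.18, beside 0.0013 over all rows, and 43 of 50 values were above 0. For 15 members (30%) every HG library lay above every control library, beside 6.74% of all rows, and for 1 member every HG library lay below, beside 6.91%. A fold change above 1.5 in either direction with an adjusted p under 0.05 was found for 4 members, CTSK, NPC1, ATP6V0D2 and LAMP3, while 3.69% of all rows met both limits. ATP6V0D2 passed the filter only through the HG group, in which it was high, and so had to differ. Without it, 17 of 49 members were higher (34.7%), 14 had no overlap with HG above (28.6%), 3 passed the fold change limit and the median log2 fold change was 0.18. CTSE, CTSG, CTSW, ATP6V1B1 and ATP6V1G3 had too few counts to be tested. Leaving out control library 2 and HG_1 together gave 27 higher (54%) and 2 lower members (4%) of 50, in a fit that also called more of all rows (13.3% higher and 13.8% lower).

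**Figure D1:**
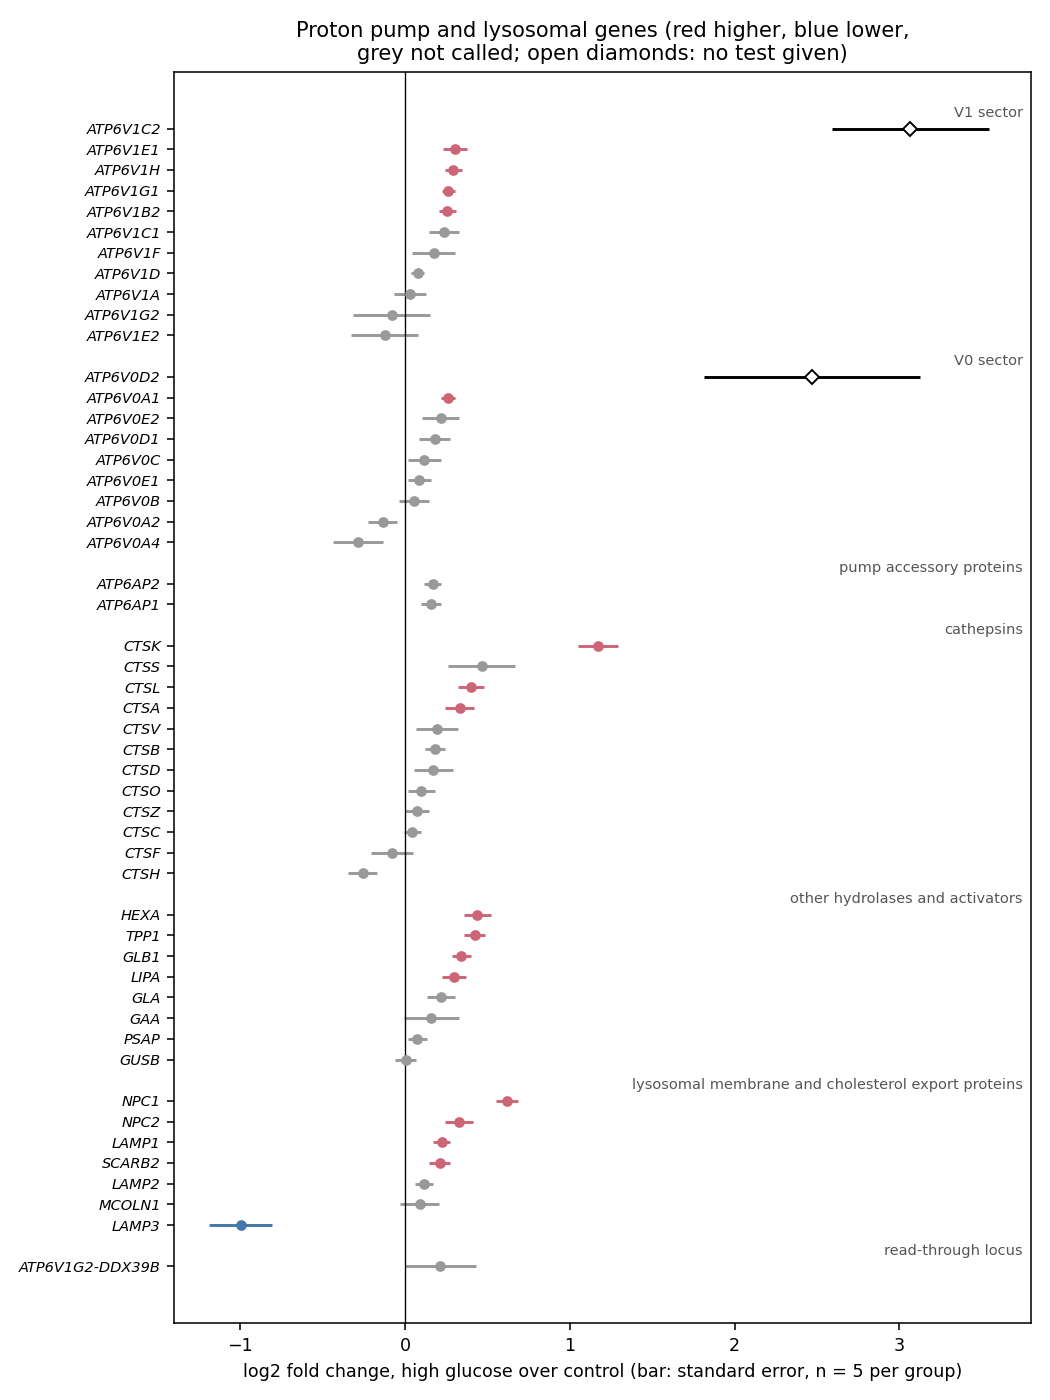
Log2 fold change of HG over control for 50 members that passed the filter, by role, with the standard error as a bar (n = 5 per group). Red points mark 16 higher members, the blue point LAMP3 and grey points members not called, and the open diamonds mark ATP6V1C2 and ATP6V0D2, for which no test is given. Except for CTSK, the red points lie between 0.21 and 0.62.

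The members' promoters were searched for the letters CACGTG and for the longer TCACGTGA, which contains it. Both read the same on either strand and resemble the element bound by the MiT/TFE transcription factors, known regulators of lysosomal genes. RefSeq promoter windows (GRCh38.p14, 250 bases before to 50 bases after the start) were found for 39 of the 56 members, not including CTSK. CACGTG was in 10 of 39 members (25.6%) and in 2396 of 27305 genes (8.77%), and TCACGTGA in 6 of 39 (15.4%) and in 321 genes (1.18%). The 6 members are shown by 40 bases of the strand of the gene, with TCACGTGA in capitals, because they carry the longer match.
ATP6V1G1 (chr9:114587694-114587733, + strand): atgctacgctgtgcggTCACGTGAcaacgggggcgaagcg
ATP6V0D1 (chr16:67481194-67481233, - strand): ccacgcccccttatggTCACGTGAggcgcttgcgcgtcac
CTSA (chr20:45891293-45891332, + strand): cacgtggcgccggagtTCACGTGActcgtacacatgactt
GAA (chr17:80101488-80101527, + strand): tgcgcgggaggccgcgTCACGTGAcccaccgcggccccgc
LAMP1 (chr13:113297194-113297233, + strand): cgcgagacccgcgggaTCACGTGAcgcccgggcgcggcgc
MCOLN1 (chr19:7522566-7522605, + strand): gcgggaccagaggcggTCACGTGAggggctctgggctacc
The first base of these matches lies 59, 60, 26, 77, 29 and 42 bases before the start. GAA, LAMP1 and MCOLN1 have a further match each. ATP6V1G1, CTSA and LAMP1 were higher in HG, and ATP6V0D1 (log2 fold change 0.18), GAA (log2 fold change 0.16) and MCOLN1 (log2 fold change 0.088) were not called. Thus 3 of the 6 tested members with TCACGTGA and 9 of the 28 without it were higher, with median log2 fold changes of 0.20 and 0.17. With CACGTG in any context it was 3 of 10 and 9 of 24. A match is a description of the letters in this window.

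In the V1 sector, 4 of the 10 tested subunit genes were higher in HG (40%), beside 7.62% of all rows. No gene was lower, beside 7.8% of all rows, and the median log2 fold change was 0.21. None of the 4 is a tissue-restricted paralog. ATP6V1E1, a peripheral stalk subunit, was at 192, 244, 224, 226 and 216 CPM in control libraries 1 to 5 and at 312, 256, 271, 266 and 253 CPM in HG_1 to HG_5. Its HG libraries all lay above the control libraries, with HG_1 highest (log2 fold change 0.30 ± 0.074 SE, adjusted p = 0.0187). ATP6V1H, which regulates the coupling of V1 to V0, had 97.7, 116, 112, 109 and 107 CPM in control libraries 1 to 5 and 134, 128, 139, 137 and 127 CPM in HG_1 to HG_5. The groups did not overlap (log2 fold change 0.29 ± 0.053 SE, adjusted p = 0.00383). ATP6V1G1, the common G subunit of the peripheral stalk whose promoter window is shown above, measured 106, 114, 111, 106 and 104 CPM in control libraries 1 to 5 and 132, 126, 130.03, 129.9 and 131 CPM in HG_1 to HG_5. Its libraries lay close together within each group, and the groups did not overlap (log2 fold change 0.26 ± 0.039 SE, adjusted p = 0.00143). ATP6V1B2, the widespread B subunit of the hexamer, was at 226, 239, 264, 256 and 258 CPM in control libraries 1 to 5 and at 277, 299, 295, 308 and 306 CPM in HG_1 to HG_5. Again no HG library reached down to the control range (log2 fold change 0.26 ± 0.052 SE, adjusted p = 0.00709). Its catalytic partner ATP6V1A was at 130.0 ± 14.4 CPM in control and 133 ± 15.7 CPM in HG (SD, n = 5) and was not called (log2 fold change 0.03 ± 0.099 SE, adjusted p = 0.885). The rotor subunits ATP6V1D (log2 fold change 0.077 ± 0.04 SE, adjusted p = 0.234) and ATP6V1F (log2 fold change 0.17 ± 0.13 SE, adjusted p = 0.433) were not called either. The narrowly expressed paralogs ATP6V1E2 and ATP6V1G2 were low (1.91 ± 0.378 and 0.414 ± 0.0487 CPM in control, SD, n = 5) and were not called.

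ATP6V1C2 and ATP6V1C1 encode the alternative C subunits that clamp the peripheral stalks. ATP6V1C1 is made in most tissues, and ATP6V1C2 is known from few epithelia such as those of kidney and lung. The deposited read counts of ATP6V1C2 were 65, 91, 96, 65 and 55 in control libraries 1 to 5 and 990, 946, 248, 675 and 169 in HG_1 to HG_5. In CPM, ATP6V1C2 had 1.97, 2.04, 2.31, 1.97 and 1.24 CPM in control libraries 1 to 5 and 25.7, 22.9, 5.53, 20.5 and 5.14 CPM in HG_1 to HG_5. Every HG library lay above the control libraries, but the HG libraries fell apart into HG_1, HG_2 and HG_4 at 20.5 CPM or more and HG_3 and HG_5 at 5.53 CPM or less. HG_4 and HG_5 had nearly equal totals, 32504910 and 32448991 counts. The means were 1.90 ± 0.399 CPM in control and 16.0 ± 9.88 CPM in HG (SD, n = 5), a fitted log2 fold change of 3.07, which ranged from 2.83 to 3.29 when single libraries were left out. The highest HG library was 5.0 times the lowest, the widest spread among the members tested, followed by ATP6V0D2 (3.5 times) and LAMP3 (1.8 times).

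The difference between groups was far smaller for ATP6V1C1. It measured 119, 104, 125, 126 and 125 CPM in control libraries 1 to 5 and 112, 147, 137, 161 and 148 CPM in HG_1 to HG_5. HG_2 to HG_5 lay above all control libraries and HG_1 lay inside the control range, and the difference was not called (log2 fold change 0.24 ± 0.092 SE, adjusted p = 0.114). Without HG_1 the log2 fold change was 0.31 (adjusted p = 0.00917), and ATP6V1C1 was also called with the GC and length trend of each library removed. Compared in FPKM, which divides by transcript length as well as library size, ATP6V1C2 stood at 0.557 ± 0.147 in control and 4.76 ± 2.92 in HG, and ATP6V1C1 at 19.6 ± 1.78 and 23.4 ± 3.45 (SD, n = 5). ATP6V1C2 thus made up 2.76%, 3.28%, 3.58%, 2.59% and 1.67% of the FPKM of both C subunit genes in control libraries 1 to 5. In HG_1 to HG_5 its share was 29.4%, 22.1%, 6.77%, 18.8% and 5.86%. The means were 2.78 ± 0.734% and 16.6 ± 10.1%, so ATP6V1C1 had the larger part of this sum in every library. The summed FPKM of both genes was 20.2 ± 1.79 in control and 28.1 ± 4.00 in HG.

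**Figure D2:**
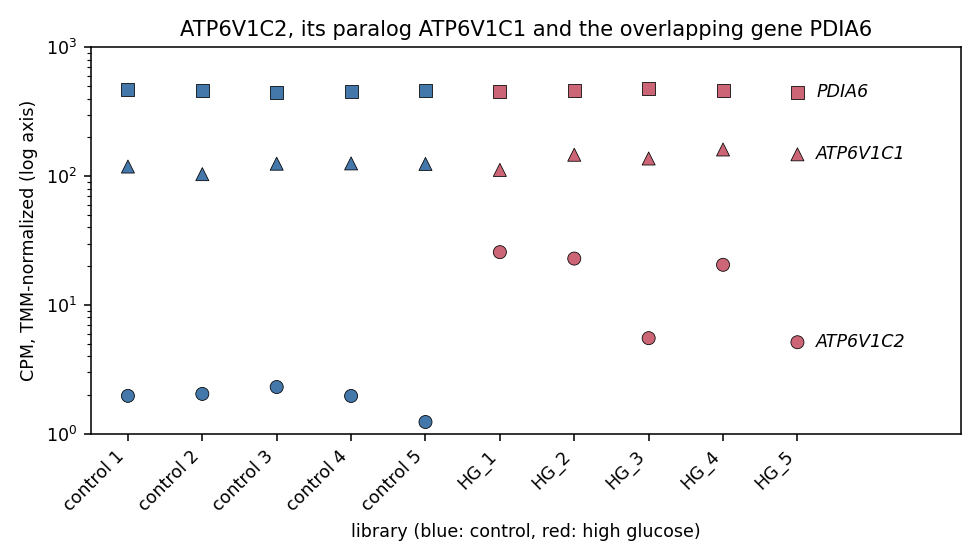
Level in each library (CPM after TMM, log axis) of ATP6V1C2 (circles), ATP6V1C1 (triangles) and the overlapping gene PDIA6 (squares), with control in blue and HG in red. ATP6V1C2 lies at 1.24 to 2.31 CPM in control and 5.14 to 25.7 CPM in HG, and PDIA6 between 449 and 483 CPM.

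ATP6V1C2 lies on the + strand at chr2:10721100-10785110 (GRCh38, GENCODE), and its 3' end overlaps that of PDIA6, a protein disulfide isomerase gene on the - strand. Of 3483 exonic bases of ATP6V1C2, 1033 (29.7%) are also exonic in PDIA6, at chr2:10783391-10785030. Whether the counting used strand is not given in the sources used here, so reads from the shared stretch may belong to either gene. PDIA6 was at 469, 464, 449.9, 454 and 460.5 CPM in control libraries 1 to 5 and at 458, 464, 483, 463 and 449 CPM in HG_1 to HG_5. PDIA6 was not called (log2 fold change 0.012 ± 0.034 SE, adjusted p = 0.872). The ATP6V1C2 counts were 0.268% to 0.513% of the PDIA6 counts in control and 1.14% to 5.62% in HG. The 250 bases before the RefSeq start of ATP6V1C2 (chr2:10721380-10721629, + strand) are shown because ATP6V1C2 has the largest fitted difference of the members. They hold 76.8% G and C, and neither CACGTG nor TCACGTGA occurs in them or in the next 50 bases, so no base is in capitals.
ATP6V1C2: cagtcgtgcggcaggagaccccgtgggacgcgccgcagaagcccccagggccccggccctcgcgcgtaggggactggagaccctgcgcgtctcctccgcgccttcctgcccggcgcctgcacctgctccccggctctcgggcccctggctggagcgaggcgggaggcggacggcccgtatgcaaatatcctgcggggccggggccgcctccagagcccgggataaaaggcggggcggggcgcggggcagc

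In the V0 sector, 2 of 9 genes were higher, none was lower and the median log2 fold change was 0.12. Without ATP6V0D2, 1 of 8 was higher (12.5%), near the 7.62% of all rows, and the median was 0.10. With the GC and length trend of each library removed that count was 3 of 8, beside 14.5% of all rows. ATP6V0D1 and ATP6V0E2 were then also called. Without control library 2 and HG_1 it was 4 of 8, beside 13.3% of all rows, and ATP6V0C was called as well. ATP6V0D2, the d subunit known from osteoclasts and kidney, was near the detection limit in control. It had 0, 0.471, 0.0962, 0.303 and 0.157 CPM in control libraries 1 to 5 and 1.09, 1.91, 1.38, 0.882 and 0.547 CPM in HG_1 to HG_5. The read counts behind these values were 0, 21, 4, 10 and 7 in control and 42, 79, 62, 29 and 18 in HG, where a count of 0 allows up to 0.0908 CPM in control library 1. The lowest HG library lay just above the highest control library (fitted log2 fold change 2.47). Since the gene entered the fit only through the HG group, no p-value is given for it, and its call was lost when control library 3, 4 or 5 or HG_2 or HG_3 was left out. ATP6V0A1, the a subunit found in most cells, measured 94.2, 101, 105, 100.02 and 102 CPM in control libraries 1 to 5 and 120.2, 122, 119.9, 115 and 124 CPM in HG_1 to HG_5. The groups did not overlap (log2 fold change 0.26 ± 0.042 SE, adjusted p = 0.00206). The widespread d subunit ATP6V0D1 (log2 fold change 0.18 ± 0.095 SE, adjusted p = 0.247) and the proton-carrying ring subunits ATP6V0C (log2 fold change 0.12 ± 0.10 SE, adjusted p = 0.501) and ATP6V0B (log2 fold change 0.053 ± 0.09 SE, adjusted p = 0.765) were not called. The small membrane subunits ATP6V0E1 (log2 fold change 0.086 ± 0.071 SE, adjusted p = 0.485) and ATP6V0E2 (log2 fold change 0.22 ± 0.11 SE, adjusted p = 0.231) were not called either. ATP6V0D1, ATP6V0C, ATP6V0B, ATP6V0E1 and ATP6V0E2 were each highest in HG_1. Of the windows of 100 bases across the ATP6V0C transcript, 82.1% are shared with annotated loci on the same strand, so its level is uncertain, as are 25.3% of those of ATP6V0E2 and 9.46% of those of ATP6V0D2, shared with genes on the other strand. The accessory proteins ATP6AP1 (log2 fold change 0.16 ± 0.062 SE, adjusted p = 0.118) and ATP6AP2 (log2 fold change 0.17 ± 0.053 SE, adjusted p = 0.0582), which assist pump assembly, were not called, but both were called as higher with the trend removed and without control library 2 and HG_1.

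The balance among the a subunit genes moved towards ATP6V0A1. Because a ratio within a library needs no scaling between libraries, paralogs were compared as log2 ratios of counts by exact permutation of the group labels (252 arrangements, two-sided, smallest possible p = 0.00794), with p adjusted over the 6 pairs tested. ATP6V0A2, the a subunit of Golgi and endosomes, fell relative to ATP6V0A1 by 0.40 on the log2 scale (exact p = 0.00794, adjusted p = 0.0318). ATP6V0A4, the kidney form, fell by 0.55 relative to ATP6V0A1 (exact p = 0.0159, adjusted p = 0.0318). TCIRG1, the a3 subunit of lysosomes and osteoclasts, which is outside the symbol rule, fell by 0.40 relative to ATP6V0A1 (exact p = 0.0159, adjusted p = 0.0318). The 3 ratios share ATP6V0A1 and are not independent. Scaling cancels in a ratio, but a GC dependence such as that of control library 2 and HG_1 need not. It was not removed from these ratios, and the transcripts of ATP6V0A2 and ATP6V0A1 hold 43.6% and 51.5% GC. Of the summed FPKM of the 4 genes, ATP6V0A1 made up 52.9%, 53.1%, 56.8%, 55.5% and 54.3% in control libraries 1 to 5. In HG_1 to HG_5 the ATP6V0A1 share was 58.7%, 61.4%, 61.9%, 61.6% and 62.6%, above control in all 5. TCIRG1 went from 29.8 ± 2.55% to 25.5 ± 2.33%, ATP6V0A2 from 11.6 ± 1.26% to 10.0 ± 1.1% and ATP6V0A4 from 4.12 ± 0.346% to 3.19 ± 0.446% of the sum (SD, n = 5). Control library 2 and HG_1 had the lowest ATP6V0A2 shares (9.7% and 8.2%) and the highest TCIRG1 shares (33.6% and 29.7%) of their groups. On their own, ATP6V0A2 (log2 fold change -0.14 ± 0.087 SE, adjusted p = 0.354), ATP6V0A4 (log2 fold change -0.29 ± 0.15 SE, adjusted p = 0.243) and TCIRG1 (log2 fold change -0.14, adjusted p = 0.345) were not called. The pairs of ATP6V1E2 with ATP6V1E1 (-0.43), ATP6V1G2 with ATP6V1G1 (-0.36) and ATP6V0E2 with ATP6V0E1 (0.12) each had an exact p of 0.0556 and were not called. In the d pair, the share of ATP6V0D2 in the FPKM of both genes averaged 0.0719% over the control libraries and 0.413% over the HG libraries. Its counts in control were too few for the test, which needed a mean of at least 10 counts in each group. ATP6V1B1 had too few in HG for the pair with ATP6V1B2.

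**Figure D3:**
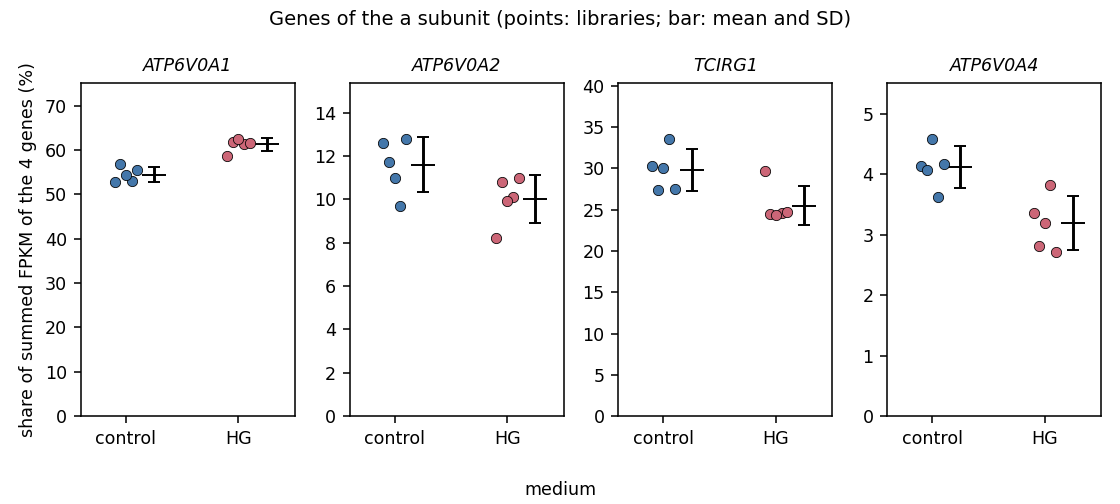
Share of each of the 4 a subunit genes in their summed FPKM (percent, axes from 0, scaled per gene), with points for libraries and bars for mean and SD of 5 libraries. ATP6V0A1 rises from 54.5% to 61.3% with no overlap, and the other 3 overlap between groups.

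Among the cathepsins, 3 of 12 tested genes were higher (25%) and none was lower, beside 7.62% and 7.8% of all rows. The median log2 fold change was 0.18. With the GC and length trend removed, a fit in which 14.5% of all rows were higher and 14.8% lower, 5 were higher, CTSB and CTSD in addition, and CTSH was lower. CTSK, a collagen-degrading cysteine protease best known from osteoclasts, had the largest log2 fold change of the 50 after ATP6V0D2. The gene (chr1:150796208-150808323, - strand) was at 176, 300.2, 279, 268 and 259 CPM in control libraries 1 to 5 and at 633, 571, 594, 537 and 549 CPM in HG_1 to HG_5. The lowest HG library was well above the highest control library (log2 fold change 1.17 ± 0.12 SE, adjusted p = 0.00019), and the log2 fold change was 1.06 to 1.23 with any single library left out. CTSL, a cysteine protease of most lysosomes, had 122, 159, 146, 139 and 137 CPM in control libraries 1 to 5 and 213, 175, 189, 179 and 173 CPM in HG_1 to HG_5. HG_1 was highest and the groups did not overlap (log2 fold change 0.40 ± 0.078 SE, adjusted p = 0.00595). CTSA, the serine carboxypeptidase that also protects beta-galactosidase and neuraminidase in a complex, measured 459.7, 623, 582, 553 and 544 CPM in control libraries 1 to 5 and 810.4, 664, 693, 656 and 649 CPM in HG_1 to HG_5. Control library 2 and HG_1 were the highest of their groups, which did not overlap (log2 fold change 0.33 ± 0.086 SE, adjusted p = 0.0251), and the call was lost without control library 4 or 5 or HG_3 (adjusted p up to 0.0601). Its exons are partly shared with NEURL2 and PLTP on the other strand (14.9% of windows).

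CTSD, the aspartic protease central to the digestion of outer segments in the RPE, was the most abundant member and reached 3304 ± 482 FPKM in control and 3666 ± 542 FPKM in HG (SD, n = 5). It was at 5838, 8467, 6963, 6506 and 6485 CPM in control libraries 1 to 5 and at 9882, 7195, 7639, 7018 and 6867 CPM in HG_1 to HG_5, with control library 2 inside the HG range and HG_1 far above the others. It was not called (log2 fold change 0.17 ± 0.12 SE, adjusted p = 0.394), but it was with the GC and length trend removed (log2 fold change 0.19, adjusted p = 0.00169). Of its windows, 59.6% are shared with other annotated loci. CTSB, a cysteine protease (log2 fold change 0.18 ± 0.061 SE, adjusted p = 0.068), CTSS, known from antigen-presenting cells (log2 fold change 0.46 ± 0.20 SE, adjusted p = 0.16), and CTSH, an aminopeptidase (log2 fold change -0.26 ± 0.088 SE, adjusted p = 0.0768), were not called. For CTSH, whose values lay mostly lower in HG (937 ± 87.6 and 785 ± 95.5 CPM, SD, n = 5), the log2 fold change was -0.33 without HG_1 (adjusted p = 0.00804), and CTSH was also called lower with DESeq2 and with the GC and length trend removed, HG_1 included. CTSV, CTSO, CTSZ, CTSC and CTSF had log2 fold changes from -0.08 to 0.20 and were not called.

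Of the 9 other hydrolases and activators, 5 were higher (55.6%) and none lower, beside 7.62% and 7.8% of all rows. Their median log2 fold change was 0.30. HEXA, the alpha chain of a hexosaminidase that degrades the ganglioside GM2, had 201, 284, 252, 250.1 and 238 CPM in control libraries 1 to 5 and 375, 328, 326, 315 and 317 CPM in HG_1 to HG_5. HG_1 was highest and the groups did not overlap (log2 fold change 0.44 ± 0.085 SE, adjusted p = 0.00572). TPP1, a tripeptidyl peptidase, measured 545, 637, 704, 658 and 645 CPM in control libraries 1 to 5 and 826, 890.5, 872, 835 and 846 CPM in HG_1 to HG_5. All HG libraries exceeded all control libraries (log2 fold change 0.42 ± 0.062 SE, adjusted p = 0.00135). GLB1, the beta-galactosidase whose activity is stained as a marker of senescent cells, was at 138, 148, 145, 133 and 136 CPM in control libraries 1 to 5 and at 195, 181, 181, 162 and 169 CPM in HG_1 to HG_5. HG_4 was the lowest HG library and still above control library 2, the highest of its group (log2 fold change 0.34 ± 0.056 SE, adjusted p = 0.00231). LIPA, the acid lipase that frees cholesterol from its esters, had 116, 113, 144, 138 and 127 CPM in control libraries 1 to 5 and 143, 169, 163, 157 and 152 CPM in HG_1 to HG_5. Control library 3 reached into the HG range (log2 fold change 0.30 ± 0.074 SE, adjusted p = 0.0214), and the call was lost without control library 1, HG_2 or HG_3 (adjusted p up to 0.0576). GLA (log2 fold change 0.22 ± 0.086 SE, adjusted p = 0.122), GAA (log2 fold change 0.16 ± 0.17 SE, adjusted p = 0.603), the saposin precursor PSAP (log2 fold change 0.074 ± 0.056 SE, adjusted p = 0.447) and GUSB (log2 fold change 0.0038 ± 0.064 SE, adjusted p = 0.978) were not called. Of the windows of TPP1 and HEXA, 16.3% and 16.0% are shared with other annotated loci. PSAP was second in level, at 1739 ± 85.9 FPKM in control and 1843 ± 87.1 FPKM in HG (SD, n = 5).

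Of the 7 membrane and cholesterol export genes, 4 were higher (57.1%) and 1 lower (14.3%), beside 7.62% and 7.8% of all rows. The median log2 fold change was 0.21. The higher genes were 2 (28.6%) when control library 1, 3, 4 or 5 or HG_2 or HG_3 was left out. In those fits 5.3% to 5.86% of all rows were higher. NPC1 and NPC2 hand cholesterol out of the lysosome. NPC1, the membrane transporter (chr18:23506184-23586898, - strand), measured 224, 247, 284, 269.6 and 276 CPM in control libraries 1 to 5 and 364, 409.8, 403, 409 and 410.5 CPM in HG_1 to HG_5. HG_1 was the lowest HG library and still above all control libraries (log2 fold change 0.62 ± 0.068 SE, adjusted p = 0.00025). NPC2, the soluble partner that carries cholesterol to NPC1, was at 319, 427, 363, 358 and 333 CPM in control libraries 1 to 5 and at 522, 439, 458, 419.7 and 418 CPM in HG_1 to HG_5. Control library 2 overlapped the HG range (log2 fold change 0.33 ± 0.086 SE, adjusted p = 0.0269), and the call was lost without control library 1, 3, 4 or 5 or HG_2 or HG_3 (adjusted p up to 0.0702). LAMP1, the major glycoprotein of the lysosomal membrane, had 516, 615, 588, 564 and 556 CPM in control libraries 1 to 5 and 715, 643, 665, 649.8 and 637 CPM in HG_1 to HG_5. No HG library lay within the control range (log2 fold change 0.22 ± 0.054 SE, adjusted p = 0.0185). SCARB2, which brings glucocerebrosidase to the lysosome, measured 389, 352, 411, 392 and 389 CPM in control libraries 1 to 5 and 382, 477, 452, 463 and 459.8 CPM in HG_1 to HG_5. HG_1 lay inside the control range (log2 fold change 0.21 ± 0.064 SE, adjusted p = 0.0495), and the call was kept in only 1 of the 10 fits with a library left out, that without HG_1 (adjusted p = 0.00292, otherwise up to 0.117). LAMP3, a family member known from mature dendritic cells, was the exception in direction. The gene (chr3:183122213-183163839, - strand) was at 2, 2.24, 2.72, 2.03 and 2.27 CPM in control libraries 1 to 5 and at 1.2, 1.41, 0.78, 0.973 and 1.28 CPM in HG_1 to HG_5. All HG libraries were below all control libraries (log2 fold change -0.999 ± 0.19 SE, adjusted p = 0.00562). LAMP2 (log2 fold change 0.12 ± 0.053 SE, adjusted p = 0.181) and the cation channel MCOLN1 (log2 fold change 0.088 ± 0.12 SE, adjusted p = 0.699) were not called, and LAMP2 was called without HG_1 (adjusted p = 0.0245).

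**Figure D4:**
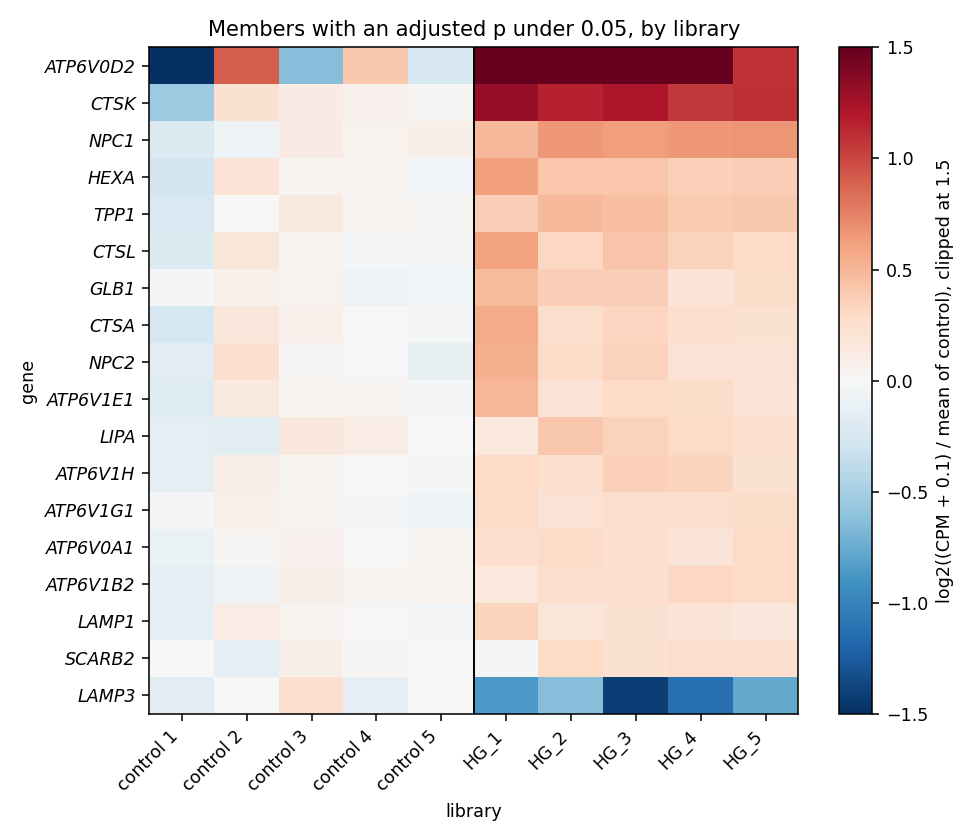
Level of 17 higher members (with ATP6V0D2, which passed the filter only through HG) and LAMP3 in each library as the log2 ratio of CPM + 0.1 to the control mean (colour, clipped at 1.5). HG columns are red in all rows except LAMP3 (blue) and SCARB2 in HG_1 (near 0), and control library 1 is blue in most rows.

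Summed over all 56 members, the lysosomal and pump genes held 1.85% to 2.28% of all counts in the control libraries and 2.24% to 2.61% in the HG libraries. CTSD and PSAP alone made up more than 1% of the counts in every library. Without them the members held 0.794% to 0.918% in control and 1.02% to 1.08% in HG, with no overlap. ATP6V1G2-DDX39B, a read-through locus matched by the symbol rule (log2 fold change 0.21 ± 0.22 SE, adjusted p = 0.582), shares 94.9% of its windows with its neighbours and its counts cannot be given to the pump gene.

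Lysosomal genes outside the symbol rule were read from lists of 75 symbols, of which 72 were in the table and tested. Of these, 20 were higher (27.8%) and 2 lower (2.78%), beside 7.62% and 7.8% of all rows, with a median log2 fold change of 0.14. The shares differed between lists, from 39.1% higher among the hydrolases and 44.4% among the Ragulator and Rag genes to 9.09% among the pump factors, 11.1% among the delivery genes and 14.3% among the MiT/TFE list, each of the last 3 resting on 1 gene. Among 23 other hydrolases, 9 were higher, led by ASAH1, the acid ceramidase (log2 fold change 1.08, adjusted p = 0.000145), GM2A, the GM2 activator that presents the ganglioside to hexosaminidase (log2 fold change 0.75, adjusted p = 6.97e-05), and NEU1, the sialidase held by CTSA (log2 fold change 0.66, adjusted p = 0.00303), and MAN2B1, an alpha-mannosidase, was lower (log2 fold change -0.29, adjusted p = 0.0194). Of 13 other membrane proteins, 4 were higher, among them TMEM192 (log2 fold change 0.52, adjusted p = 0.000367), the sialic acid exporter SLC17A5 (log2 fold change 0.45, adjusted p = 0.000517) and CLN3 (log2 fold change 0.44, adjusted p = 0.0282), and LAPTM4A was lower (log2 fold change -0.21, adjusted p = 0.00504). The Ragulator and Rag GTPases, which anchor mTORC1 at the lysosome, had 4 of 9 higher, including RRAGD (log2 fold change 1.05, adjusted p = 0.000257), RRAGB (log2 fold change 0.46, adjusted p = 0.00613) and LAMTOR5 (log2 fold change 0.35, adjusted p = 0.0193). Of 11 pump assembly factors and subunits outside the rule, CCDC115 alone was higher (log2 fold change 0.47, adjusted p = 0.00141), and of 9 genes for delivery to the lysosome, the mannose 6-phosphate receptor M6PR (log2 fold change 0.35, adjusted p = 0.00284). Of the 7 MiT/TFE factors and partners, FNIP2, a partner of folliculin, was higher (log2 fold change 0.59, adjusted p = 0.0182). The factors themselves, named here after their values were seen, were not called, with log2 fold changes of 0.038 for TFEB, -0.17 for TFE3, -0.20 for MITF and 0.15 for TFEC.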

How the data were processed

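ARPE-19 libraries were made from total RNA, and the submitters' processing notes name fastp 0.20.1, HISAT2 2.2.1 and GRCh38. The counting program and its use of strand are not given in the sources used here. The authors deposited a table of raw read counts per gene and library and a table of FPKM values, scaled by them for transcript length and library size. Rows for assembled loci named MSTRG took 1.34% to 1.65% of the counts. The members, gene lists and tests were chosen with earlier results of these data known. All 14936 rows that passed the default count filter were fitted with edgeR 4.0.16 (R 4.3.3) by its quasi-likelihood test after TMM normalization. There, p was adjusted by Benjamini-Hochberg over these rows, with calls at an adjusted p under 0.05. Fold changes and SE come from this fit, and levels between genes were compared in FPKM. Paralog ratios used counts plus 0.5 and pairs in which both genes had a mean of at least 10 counts in each group. Values per library were given for ATP6V1C2, ATP6V1C1 and all members called, and other pathway genes were named when called, up to 3 of the largest changes in each list. Alternatives used DESeq2 1.42.0, limma 3.58.1 on log2(FPKM + 1) or log2(FPKM + 0.1), other filters and scalings, and left-out libraries. The fits were also run on simulated counts with known changes, and the outcome is not given here. The values of 1 member and 1 marker gene are counted in the totals and are not reported here. Gene positions and overlaps came from GENCODE on GRCh38. The count in a library limits the precision of low genes, and detection limits cover counting error only.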

Additional observations from a re-analysis of the deposited data

Results flagged for a closer look

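The highest or lowest library was set apart from the other 4 of its group, by Dixon's 95% criterion, in 14 of the 102 groups of 5 libraries examined, where chance gives about 1 in 20 (5.1). In 13 of the 14 that library was HG_1, which also stood apart on the second principal component. HG_1 lay above the other HG libraries for CTSD (9882 CPM, others 6867 to 7639), CTSA (810.4 CPM, others 649 to 693), HEXA (375.4 CPM, others 315 to 328), ATP6V0B (119.0 CPM, others 94.8 to 97.9), ATP6V0C (277.1 CPM, others 207.5 to 223), ATP6V0D1 (244.6 CPM, others 185 to 190.2), ATP6V0E1 (324.1 CPM, others 268 to 284) and ATP6V1F (166.8 CPM, others 108 to 118). It lay below them for NPC1 (363.8 CPM, others 403 to 410.5), LAMP2 (359.6 CPM, others 406 to 419), SCARB2 (382.4 CPM, others 452 to 477), ATP6V0A2 (24.5 CPM, others 30.1 to 31.6) and ATP6AP2 (204.1 CPM, others 234 to 240.3). The transcripts of the 8 genes above had a median GC content of 56.0% (44.1% to 64.0%) and those of the 5 genes below 42.8% (37.7% to 50.3%). The gaps were recomputed, a check added after seeing the data, with the dependence on GC and length removed in every library, and 6 of the 14 gaps remained past the criterion, those of CTSA, CTSD, ATP6V0C, LAMP2, HEXA and SCARB2.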

How the results depend on the processing

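No paired analysis was possible because the labels number the control samples and letter the HG samples, and nothing in them ties the numbers in the table's HG columns to those of the control samples. No called member changed direction in any of 21 alternative fits. The 1 lower member became 2 (CTSH in addition) with DESeq2, with the GC and length trend removed, and without control library 2 and HG_1. In those fits 8.6%, 14.8% and 13.8% of all rows were lower. The count was 0 with limma on log2(FPKM + 1) over rows with a mean FPKM of at least 1. There LAMP3 was not tested, and 7.33% of all rows were lower. Members past a fold change of 1.5 were 4, and 2 with limma on log2(FPKM + 1) with or without that filter, a scale that understates changes of low genes. Members without overlap numbered 16, and 27 (54%) without control library 2 and HG_1 together, where the share over all rows also rose, from 13.6% to 30.7%. With single libraries left out, 13 to 21 members were higher, fewest without HG_3, where 5.3% of all rows were higher, and most without HG_1, where 9.74% were. In these fits 1 to 2 members were lower, beside 5.64% to 10.1% of all rows. The fold change of 1.5 was passed by 3 to 4 members, where 3.69% of all rows passed it and were called in the fit as reported. Without overlap were 16 to 23, beside 14.5% to 22.9% of all rows, both highest without HG_1. The counts of members in this paragraph include ATP6V0D2 wherever it was tested, although it passed the filter only through HG. The called paralog ratios were 3 to 5, with 5 without HG_5, and the mean ATP6V1C2 share in HG was 13.4% to 19.3%. On log2(FPKM + 1) the ATP6V1C2 difference was 1.70. Of the 19 calls, that of ATP6V0D2 included, 14 remained without HG_3, the fewest with a library left out. ATP6V0D2 was among those lost there. SCARB2 was also lost with RLE size factors, with library size alone, without a count filter and with limma, CTSA with limma on log2(FPKM + 1) or log2(FPKM + 0.1), and ATP6V0D2 was not tested with a minimum of 10 counts in every sample. Calls were gained too. CTSB was added with DESeq2, library size alone and limma on log2(FPKM + 1), ATP6AP2 with DESeq2, and 8 members with the GC and length trend removed (CTSH as lower; CTSB, CTSD, ATP6V0D1, ATP6V0E2, ATP6V1C1, ATP6AP1 and ATP6AP2 as higher, 25 higher in all), where 14.5% of all rows were higher. Over all rows, 1648 to 4035 were called across the settings and 2303 in the fit as reported. The cause of these shifts was not tested.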
